A study of Homo sapiens with 6 samples.

Results

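The transcripts described here are the host genes of small nucleolar RNAs and a group of well-studied long non-coding RNAs in TC71, a Ewing sarcoma cell line. They were taken by name: every row of the count table called SNHG with a number, which gave 28 genes, and 11 further genes, GAS5, MALAT1, NEAT1, DANCR, ZFAS1, EPB41L4A-AS1, MEG3, H19, TUG1, OIP5-AS1 and NORAD. They make up 39 of the 60676 genes listed. RNA was sequenced from 3 libraries of cells with a non-targeting control shRNA (shNTC) and 3 libraries of cells with an shRNA against EHD1 (shEHD1), a regulator of endocytic recycling. Both groups carried a doxycycline (Dox)-inducible lentiviral shRNA vector with a GFP marker as polyclonal, puromycin-selected cell lines, and both received 0.5 µg/ml Dox for 3 days. The sources used here do not say which EHD1 shRNA, or which mix, made the knockdown libraries, nor whether the 3 libraries of a group came from separate cultures, so p-values measure only the spread between these libraries.

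Most human small nucleolar RNAs (snoRNAs) are cut from introns after the host transcript is spliced. C/D snoRNAs guide ribose methylation of ribosomal RNA, H/ACA snoRNAs guide pseudouridylation, and scaRNAs guide the same reactions on spliceosomal RNAs in Cajal bodies. The spliced exons of many non-coding hosts have short reading frames that ribosomes engage, which exposes them to nonsense-mediated decay. The count table measures those exons. It says little about the mature snoRNAs, because the library kit selects polyadenylated RNA, and rows of snoRNA genes took between 0.00174% and 0.00298% of counts. Many of those rows had identical means and SDs in each group, so part of that share may be a floor and not measured reads. In RefSeq on GRCh38, 30 of the 39 genes hold at least 1 snoRNA or scaRNA within their bounds, from a single one in DANCR or SNHG19 to 83 in SNHG14. The strand was not required to match in this count or in the classes drawn from it.

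The products of a few hosts are printed to show the classes by which the hosts are grouped further on. They were read from GRCh38 at the RefSeq positions, 5′ to 3′. In the H/ACA snoRNAs the capitals mark the ACA box, which stands 3 bases from the end, and in the C/D snoRNAs they mark the core of the C box near the start and the D box near the end.
SNORA26, in DANCR, chr4:52713249-52713370, plus strand: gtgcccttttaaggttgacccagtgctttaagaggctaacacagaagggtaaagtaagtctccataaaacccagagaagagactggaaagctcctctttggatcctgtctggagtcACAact
SNORA17A, in SNHG7, chr9:136726747-136726879, minus strand: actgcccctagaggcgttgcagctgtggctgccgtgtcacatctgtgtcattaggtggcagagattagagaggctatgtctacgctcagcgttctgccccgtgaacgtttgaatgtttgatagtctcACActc
SNORD60, in SNHG19, chr16:2155023-2155105, minus strand: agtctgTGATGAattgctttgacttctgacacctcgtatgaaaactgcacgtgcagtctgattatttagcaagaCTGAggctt
SNORD31, in SNHG1, chr11:62853326-62853393, minus strand: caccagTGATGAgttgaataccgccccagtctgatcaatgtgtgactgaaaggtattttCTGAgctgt
SNORD50A, in SNHG5, chr6:85677294-85677368, minus strand: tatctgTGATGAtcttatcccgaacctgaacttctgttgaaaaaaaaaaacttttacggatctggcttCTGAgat
SNORD44, in GAS5, chr1:173865968-173866028, minus strand: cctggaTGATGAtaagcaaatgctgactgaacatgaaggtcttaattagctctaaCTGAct
DANCR, SNHG7, SNHG19 and SNHG1 were lower in shEHD1 cells, whereas SNHG5 was nearly level and GAS5 was below 0 without passing the edgeR test, as described next.

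Counts per library ran from 22711235 to 30582187. EHD1 fell from 27.2 ± 0.81 to 8.02 ± 1.18 CPM (counts scaled to the TMM-adjusted library total; mean ± SD, n = 3 libraries), a log2 fold change of -1.76 with an SE of 0.12 (adjusted p = 1.35e-04, edgeR). Of the Ewing sarcoma markers, all 8 were detected, with a summed level of 2620 to 2672 CPM in shNTC and 2419 to 2534 CPM in shEHD1, and 2 of them (BCL11B and STEAP1) were lower and 1 (CD99) higher at an adjusted p under 0.05, the CD99 call being lost without the first or the second shNTC library and without the first or the third shEHD1 library. The 4 epithelial markers summed to at most 0.266 CPM and the 3 endothelial markers to at most 0.105 CPM, with KRT5, KRT14 and VWF at 0 in all libraries. Among the 3 blood markers, CD3E was at 0 and the sum was 2.31 to 3.13 CPM in shNTC and 0.899 to 1.47 CPM in shEHD1. CD79A made up most of that sum and was lower (-0.97, SE 0.27, adjusted p = 0.0371), a call lost when any one of the 6 libraries was left out. The 3 fibroblast markers summed to 20.02 to 29.7 CPM in shNTC and 24.1 to 27.0 CPM in shEHD1. COL1A1 carried that sum (log2 fold change 0.16, adjusted p = 0.539), LUM had 0.44 (adjusted p = 0.340), and DCN was lower, from 4.85 ± 0.53 to 2.40 ± 0.25 CPM (-1.01, SE 0.19, adjusted p = 0.00778). Mitochondrial rows took 3.57% to 4.04% of counts in shNTC and 1.94% to 2.71% in shEHD1, so their share moved with the group. The part of these marker and mitochondrial differences in the results was not tested.

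The snoRNA hosts and long non-coding RNAs were lower in shEHD1 cells or did not pass the test, and none was higher. Of the 33 genes that had at least 10 counts in at least 3 libraries, 12 fell at an adjusted p under 0.05 (36.4%), against a background of 8.75% of all 16785 genes tested. No member rose, against a background of 8.59%. DESeq2 called 14 lower and 0 higher, and of all 15473 genes in that test it called 1859 lower. At an unadjusted p under 0.05 edgeR had 16 lower and 0 higher, beside 2737 lower and 2691 higher of all 16785 genes. Below 0 lay 30 of the 33 log2 fold changes, and their median was -0.34, beside 0.00 for all genes tested. The 2 groups of libraries did not overlap for 18 of the 33, where the background was 39.3%. Changes were modest in size: 1 gene, SNHG12, passed both the test and a 2-fold change, the call used in the study, against a background of 2.82%. Together the members took 0.365% to 0.380% of counts in shNTC and 0.299% to 0.326% in shEHD1. With the first, the second or the third shEHD1 library left out, 7, 7 and 6 members were lower. In those fits all genes had 4.39%, 6.62% and 4.15% lower. Without the second shEHD1 library the median of the members was -0.24. The call of 12 lower and 0 higher, and the median of -0.34, were the same after mitochondrial rows were left out of the totals. TMM scaling already limits what so few rows can change, so that fit does not test the part of the mitochondrial difference. In bulk RNA, fewer cells that express a gene and less RNA per cell cannot be told apart.

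**Figure D1:**
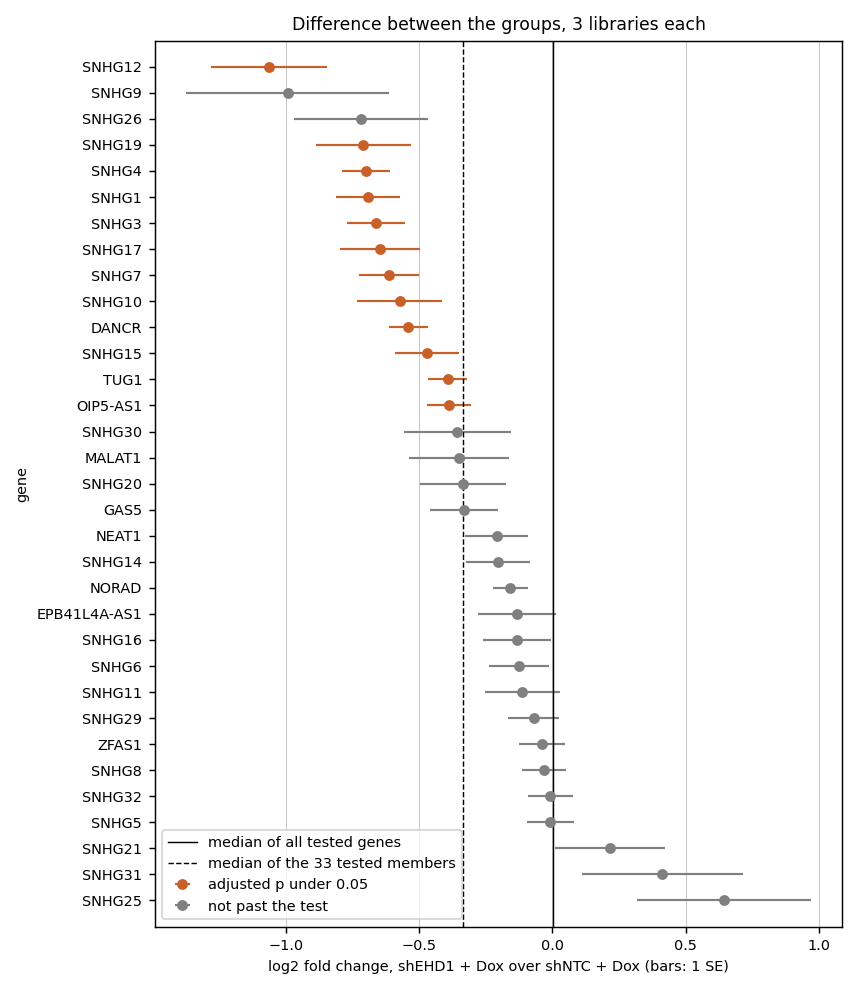
Log2 fold change of each tested gene in shEHD1 + Dox over shNTC + Dox, with bars of 1 SE (edgeR, 3 libraries a group). The 12 genes at an adjusted p under 0.05 are in orange and all lie below 0, from -1.06 for SNHG12 to -0.39 for OIP5-AS1. The dashed line is the median of the 33 genes (-0.34) and the solid line that of all genes tested (0.00).

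Of the 10 snoRNA hosts that fell, 6 carry only H/ACA snoRNAs. SNHG4, which holds SNORA74A and SNORA74D, had 124, 114 and 137 CPM in shNTC and 82.6, 70.5 and 78.0 CPM in shEHD1. Every shEHD1 library was below every shNTC library, and the log2 fold change was -0.70 (SE 0.09, adjusted p = 0.00181). SNHG3, the host of SNORA73A and SNORA73B, which take part in ribosomal RNA processing, read 164, 161 and 178 CPM against 118, 87.5 and 112 CPM. It too was separated between the groups, at -0.66 (SE 0.11, adjusted p = 0.00525). DANCR, named for its block of differentiation in progenitor cells, gave 87.7, 89.6 and 95.4 CPM in shNTC and 58.3, 65.6 and 63.7 CPM in shEHD1, a change of -0.54 (SE 0.07, adjusted p = 0.00221). Its 3 libraries lay close together within each group, and shEHD1 stood at 68.8% of the control mean.

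SNHG7, the host of SNORA17A and SNORA17B, read 32.4, 32.0 and 41.1 CPM in shNTC and 22.8, 21.7 and 24.4 CPM in shEHD1 (log2 fold change -0.61, SE 0.11, adjusted p = 0.00785). SNHG17, which holds the SNORA71 cluster, had 40.7, 35.9 and 55.9 CPM against 27.6, 27.9 and 29.1 CPM (-0.65, SE 0.15, adjusted p = 0.0206). The third control library was the highest of all for both. SNHG15, the host of SNORA9, gave 30.7, 31.1 and 40.2 CPM against 26.2, 22.8 and 24.5 CPM (-0.47, SE 0.12, adjusted p = 0.0283). SNHG17 and SNHG15 did not pass when any one of the shEHD1 libraries was left out. The row of SNORA71B, a snoRNA inside SNHG17, was also lower (-1.94, SE 0.52, adjusted p = 0.0349), at a level of 0.697 ± 0.264 CPM in shNTC and 0.174 ± 0.074 CPM in shEHD1. It was the only one of 10 snoRNA rows with enough counts for a test that passed it, and reads of unspliced SNHG17 that cross it cannot be told apart from the snoRNA. SNORA71B did not pass with DESeq2, nor when any one of the 6 libraries was left out.

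SNHG12, which holds SNORD99 beside SNORA61, SNORA44 and SNORA16A, showed the largest fall among the tested members. It had 30.1, 27.7 and 50.1 CPM in shNTC and 18.1, 17.8 and 15.8 CPM in shEHD1, which left 47.8% of the control mean (log2 fold change -1.06, SE 0.22, adjusted p = 0.0154). The groups did not overlap, but the third control library was far above the other two, and without it the fall was no longer 2-fold. SNHG12 did not pass when any one of the shEHD1 libraries was left out. SNHG10, the host of SCARNA13, had 8.17, 7.73 and 9.09 CPM against 6.29, 4.66 and 5.82 CPM (-0.57, SE 0.16, adjusted p = 0.0398), and it did not pass when any one of the 6 libraries was left out.

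Among hosts of C/D snoRNAs only, 2 of 11 fell (18.2%), against a background of 8.75%. SNHG1, whose introns hold a row of 8 C/D snoRNAs including SNORD31, had 132, 122 and 159 CPM in shNTC and 96.6, 75.2 and 84.3 CPM in shEHD1 (log2 fold change -0.69, SE 0.12, adjusted p = 0.0065). SNHG19, the host of SNORD60, had 10.3, 10.9 and 13.6 CPM against 8.36, 5.64 and 7.21 CPM (-0.71, SE 0.18, adjusted p = 0.0275). Both were separated between the groups, and SNHG19 did not pass without the second or the third shEHD1 library.

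A further set of hosts, most of them of the C/D class, lay near 0. SNHG5, the host of SNORD50A and SNORD50B, read 210.1, 225 and 244 CPM in shNTC and 231, 202 and 242 CPM in shEHD1, a log2 fold change of -0.01 with an SE of 0.09. SNHG32, the host of SNORD48 and SNORD52, had a change of -0.01 (SE 0.08), with 80.6, 83.4 and 94.3 CPM against 91.7, 80.0 and 85.0 CPM. In both, the groups overlapped. ZFAS1, which holds the SNORD12 family, gave 107, 101 and 97.3 CPM against 106, 87.4 and 103 CPM (-0.04, SE 0.09, adjusted p = 0.793). SNHG29, with SNORD49A, SNORD49B and SNORD65, gave 419, 455 and 454 CPM against 448, 361 and 457 CPM (-0.07, SE 0.10, adjusted p = 0.660). The second shEHD1 library was the lowest of the 6 for SNHG29 and ZFAS1, and the other two lay within the range of the controls or just above it.

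SNHG8, an H/ACA host with SNORA24, belonged with these by its values, at 39.97, 39.6 and 44.3 CPM in shNTC and 40.6, 37.6 and 42.9 CPM in shEHD1 (log2 fold change -0.03, SE 0.08, adjusted p = 0.826). EPB41L4A-AS1, the host of SNORA13, had 18.7, 15.6 and 23.2 CPM against 17.2, 16.6 and 18.5 CPM (-0.13, SE 0.14, adjusted p = 0.571). SNHG6, the host of SNORD87, had 53.3, 65.5 and 62.3 CPM against 59.8, 47.3 and 58.9 CPM (-0.13, SE 0.11, adjusted p = 0.483), and -0.06 without the second shNTC library or -0.03 without the second shEHD1 library. The groups overlapped for these 3 genes.

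SNHG16, with the SNORD1 family, read 220.3, 229 and 315 CPM in shNTC and 223, 240.2 and 234 CPM in shEHD1 (log2 fold change -0.13, SE 0.13, adjusted p = 0.520). Its mean difference rested on the third control library, without which it was 0.05. SNHG14, the imprinted host of the SNORD115 and SNORD116 arrays and antisense to UBE3A, had 254, 248 and 183 CPM against 186, 207 and 201 CPM (-0.20, SE 0.12, adjusted p = 0.282). Here the third control library was the lowest of the 6, and without it SNHG14 passed as lower (-0.34, adjusted p = 0.00476).

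GAS5, a host of 11 snoRNAs that accumulates in growth-arrested cells, had 371, 381 and 381 CPM in shNTC and 343, 235 and 322 CPM in shEHD1. The groups did not overlap, yet the log2 fold change of -0.33 (SE 0.13) had an adjusted p of 0.106, with 1 shEHD1 library, the second, much lower than the rest. Without that library the change was -0.18 (adjusted p = 0.0861), and DESeq2 on all 6 libraries called GAS5 lower (adjusted p = 0.0405). The remaining hosts that were tested, SNHG9, SNHG26, SNHG30, SNHG20, SNHG11, SNHG21, SNHG31 and SNHG25, averaged under 20 CPM and did not pass, with log2 fold changes from -0.99 (SNHG9) to 0.64 (SNHG25). SNHG21, SNHG31 and SNHG25 were the 3 members above 0.

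By class of hosted snoRNA, 6 of 11 H/ACA hosts fell (54.5%), with a median log2 fold change of -0.54 over all 11. Of 11 C/D hosts 2 fell (18.2%), with a median of -0.13. The background for the counts by class was 8.75% of all genes tested. Of the hosts of both classes 1 of 3 fell, of the scaRNA hosts 1 of 3, and of the genes with no snoRNA 2 of 5. The split by class was noticed after the values were seen and is a description, with no test of the difference. It also rests on calls that other settings lose. Among the H/ACA hosts, SNHG4 and SNHG3 did not pass with overlapping rows summed. SNHG17 and SNHG15 did not pass when any one of the shEHD1 libraries was left out. Among the C/D hosts, SNHG19 did not pass without the second or the third shEHD1 library.

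**Figure D2:**
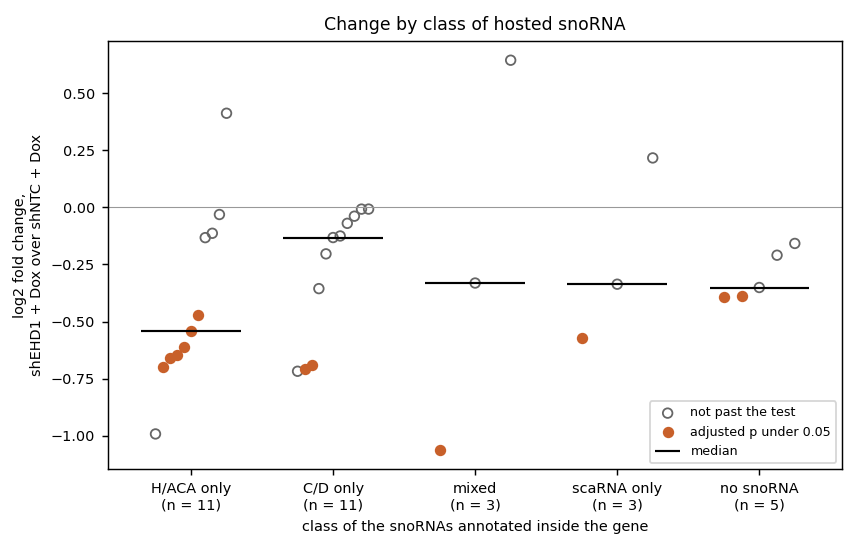
Log2 fold change (shEHD1 + Dox over shNTC + Dox) of each tested gene, grouped by the class of the snoRNAs inside it. Filled points passed an adjusted p under 0.05, open points did not, and lines are medians. Medians were -0.54 for the 11 H/ACA hosts and -0.13 for the 11 C/D hosts.

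TUG1 and OIP5-AS1, which host no snoRNA, were both lower. TUG1, first described as a taurine-induced RNA of the retina, had 219, 216 and 197 CPM in shNTC and 161, 169 and 152 CPM in shEHD1, a log2 fold change of -0.39 (SE 0.07, adjusted p = 0.00764). GENCODE 44 lists it as protein-coding. OIP5-AS1, also called Cyrano, whose conserved site drives the decay of the microRNA miR-7, had 352, 357 and 298 CPM against 246, 262 and 261 CPM (-0.39, SE 0.08, adjusted p = 0.0143). All shEHD1 libraries of both genes were below all controls. OIP5-AS1 did not pass without the first or the second shNTC library, or without the first or the third shEHD1 library.

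NORAD, a cytoplasmic RNA that binds Pumilio proteins, had the highest mean CPM of the members in each group. It had 491, 505 and 508 CPM in shNTC and 442, 475 and 431 CPM in shEHD1. In the first and the third shEHD1 library SNHG29 was higher, at 448 and 457 CPM. The groups did not overlap for NORAD, but the log2 fold change of -0.16 (SE 0.07) gave an adjusted p of 0.137. Its 5401-base transcript in GENCODE 44 holds 15 copies of the Pumilio element, written TGTANATA as DNA, or 2.78 per kb. The median of the 31364 genes with a transcript of at least 1000 bases was 0 per kb, and 13 of them were at or above NORAD, NORAD included. Of the 33 tested members, 21 had no copy in their longest transcript, and EPB41L4A-AS1 was next after NORAD at 0.570 per kb.

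The nuclear-body RNAs did not pass the test. MALAT1, a nuclear speckle RNA, had 83.4, 57.4 and 52.4 CPM in shNTC and 56.0, 41.8 and 53.7 CPM in shEHD1 (log2 fold change -0.35, SE 0.19, adjusted p = 0.243). The groups overlapped, and the first control library was the highest by a wide margin. Without it the change was -0.12 (adjusted p = 0.595). NEAT1, the scaffold of paraspeckles, had 77.9, 70.7 and 69.9 CPM against 70.7, 51.0 and 67.0 CPM (-0.21, SE 0.12, adjusted p = 0.262), with overlap at 70.7 CPM. Without the second shEHD1 library, the lowest, it was -0.08 (adjusted p = 0.536). Exact permutation tests (two-sided, 3 against 3) gave p = 0.3 for each of these 2 genes, where 0.1 is the smallest p that such a design allows.

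The imprinted RNAs MEG3 and H19, which are expressed from the maternal allele and are prominent in embryonic and placental tissue, were at or near 0. MEG3 had no count in any library, and H19 had at most 2 counts in a library. Counts of 0 allow up to 3 counts per library, by counting error only. Of 7 neighbouring imprinted genes 4 were tested, and 0 passed the test (0 also at an unadjusted p under 0.05, edgeR). SNHG18, SNHG22 and SNHG28 were at 0 in all libraries, and SNHG27 had 2 counts in 1 library.

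**Figure D3:**
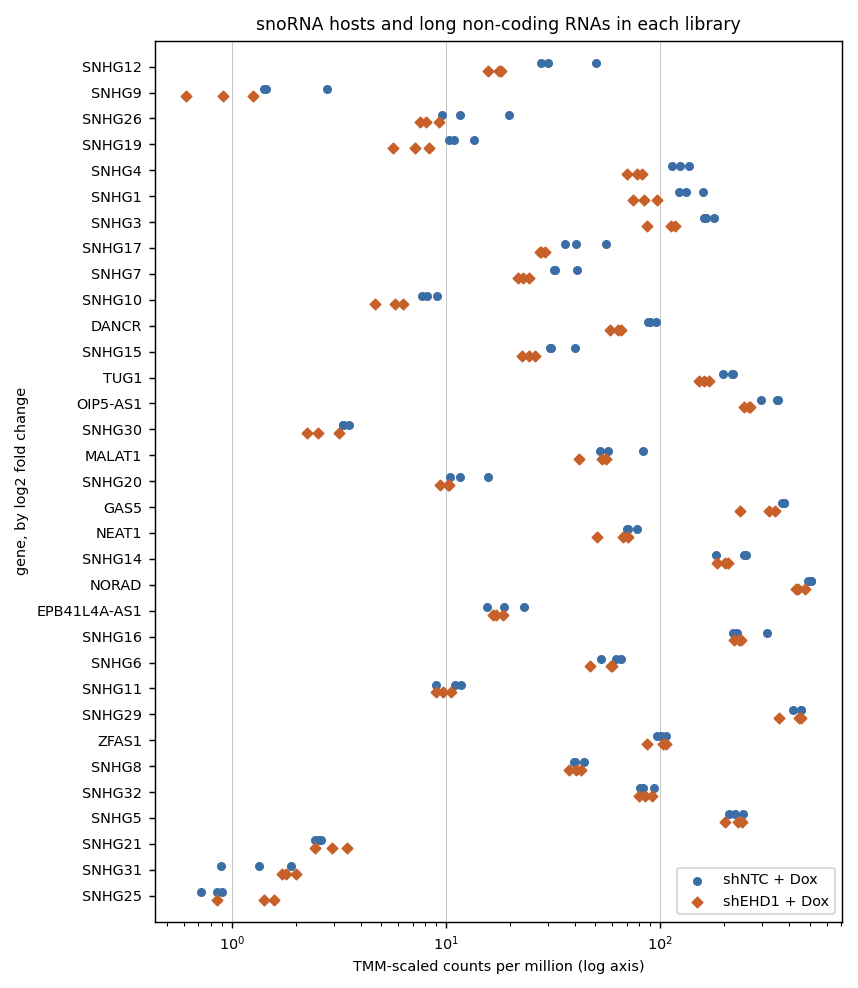
TMM-scaled CPM (log axis) of the 33 tested genes in each of the 6 libraries, ordered by log2 fold change, with shNTC + Dox as circles and shEHD1 + Dox as diamonds. SNHG4, SNHG1, SNHG3 and DANCR are separated between the groups, while SNHG5, SNHG32 and SNHG8 overlap. The third shNTC library is the highest point for SNHG12, SNHG17 and SNHG16.

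Levels of different genes were compared per kb of annotated exon. In shNTC, NORAD was first at 92.8 ± 1.7 CPM per kb and GAS5 second at 76.6 ± 1.2 CPM per kb (SD, n = 3). SNHG29 at 49.5 ± 2.3, SNHG32 at 47.8 ± 4.0 and SNHG16 at 44.1 ± 9.0 CPM per kb followed, and the spreads of these 3 overlapped. SNHG3, SNHG1 and SNHG4, all lower in shEHD1 cells, came next at 41.0 ± 2.3, 34.6 ± 4.8 and 28.0 ± 2.6 CPM per kb. MALAT1 and NEAT1, abundant in many tissues, stood at 6.17 ± 1.60 and 3.20 ± 0.19 CPM per kb, in places 20 and 23 of 33. The library kit selects polyadenylated RNA, so transcripts without a poly(A) tail, including any of MALAT1 or NEAT1, are not covered by these levels. Which transcript forms were present was not measured. NEAT1 was divided by 22767 exon bases, and its longest transcript has 22743, so a shorter form would be understated by both lengths. The places of MALAT1 and NEAT1 are therefore no measure of their total abundance. With the longest annotated transcript as the length, the order of the top 3 was SNHG29, GAS5 and NORAD. By that length MALAT1 and NEAT1 stood in places 22 and 28.

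**Figure D4:**
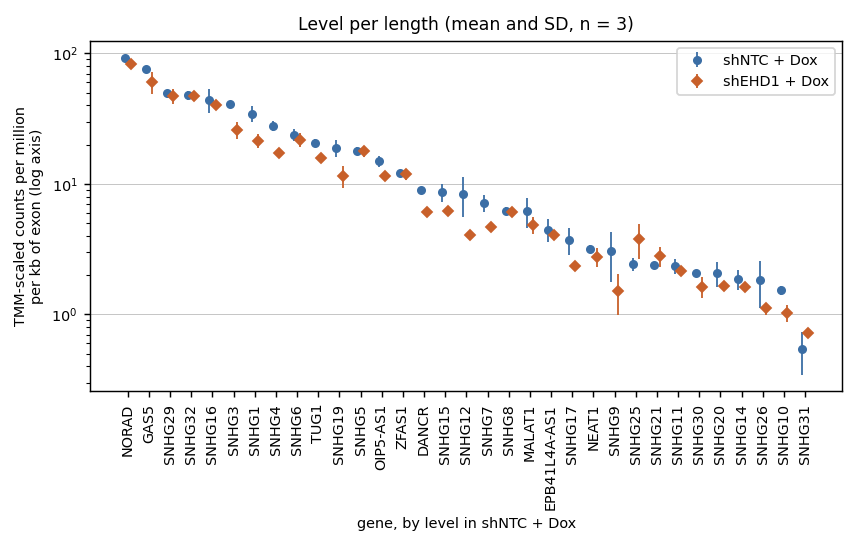
TMM-scaled CPM per kb of annotated exon (log axis; mean and SD of 3 libraries) for the 33 tested genes, ordered by level in shNTC + Dox. NORAD (92.8) and GAS5 (76.6) are highest and SNHG31 is lowest. Fallen genes such as SNHG3 and SNHG1 and level ones such as SNHG29 and SNHG32 stand side by side in the upper part of the order.

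Many hosts belong to the TOP (terminal oligopyrimidine) class, whose transcripts begin with a C and a run of pyrimidines, as those of ribosomal proteins do. RefSeq promoter entries, with 250 bases before and 50 bases after the start on GRCh38.p14, were found for 34 of the 39 genes, 28 of them tested. A C followed by at least 4 more pyrimidines at the annotated start was present in 6 of these 28 and in 4.07% of all 35116 promoters. It was present in 3 of the 11 matched genes that fell (SNHG4, SNHG12 and SNHG19) and in 3 of the 17 that did not pass (SNHG5, SNHG32 and ZFAS1). Windows of 40 bases before and 30 bases from the start are shown, with the pyrimidine run in capitals, to set hosts that fell beside hosts that lay near 0.
SNHG4, lower, chr5:139274061-139274130, plus strand: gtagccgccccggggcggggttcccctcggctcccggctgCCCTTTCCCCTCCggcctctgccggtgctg
SNHG12, lower, chr1:28581844-28581913, minus strand: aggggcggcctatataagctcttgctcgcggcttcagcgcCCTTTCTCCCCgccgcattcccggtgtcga
SNHG19, lower, chr16:2155329-2155398, minus strand: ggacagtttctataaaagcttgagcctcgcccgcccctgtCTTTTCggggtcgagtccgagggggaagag
SNHG1, lower, no such run at the annotated start, chr11:62855856-62855925, minus strand: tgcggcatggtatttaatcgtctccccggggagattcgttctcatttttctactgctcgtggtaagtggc
SNHG3, lower, no such run, chr1:28505903-28505972, plus strand: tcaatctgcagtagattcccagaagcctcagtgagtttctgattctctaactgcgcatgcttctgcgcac
SNHG5, near 0, chr6:85678704-85678773, minus strand: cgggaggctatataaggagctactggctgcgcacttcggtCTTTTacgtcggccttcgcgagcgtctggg
SNHG32, near 0, chr6:31834876-31834945, plus strand: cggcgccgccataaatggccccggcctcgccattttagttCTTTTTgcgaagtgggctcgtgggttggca
ZFAS1, near 0, chr20:49278602-49278671, plus strand: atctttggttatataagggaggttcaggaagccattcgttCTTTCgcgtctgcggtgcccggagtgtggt
The start that TC71 cells use was not measured.

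The E-box CACGTG, a palindrome bound by MYC, USF and related factors, was searched in the same 300-base promoters. It occurred in 5 of the 28 tested genes (SNHG7, OIP5-AS1, TUG1, SNHG30 and NORAD) and in 7.26% of all promoters. The first 3 of these were among the 11 matched genes that fell in shEHD1 cells, and the other 2 among the 17 that did not pass. Windows of 40 bases are shown only for the 3 that fell, with the E-box in capitals. A link between the E-box and the falls was not tested.
SNHG7, chr9:136728284-136728323, minus strand: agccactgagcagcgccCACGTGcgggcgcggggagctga
OIP5-AS1, chr15:41283740-41283779, plus strand: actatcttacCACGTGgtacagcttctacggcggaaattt
TUG1, chr22:30969171-30969210, plus strand: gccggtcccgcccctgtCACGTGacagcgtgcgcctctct
Of 3 further motifs, searched on both strands, CCGGAAGT occurred in 2 of the 28 (SNHG20 and NORAD; 4.14% of all promoters), TTTCCCGC in 1 (ZFAS1; 1.63%) and TTTGGCGC in none (0.652%). A match is a run of letters and not a measured site.

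Exons of 31 of the 33 tested members overlap those of another row, and the kit does not keep strand, so shared reads cannot be assigned to one gene. SNHG3 shares 242 exon bases with RCC1, the exchange factor of Ran, on its own strand. RCC1 had a log2 fold change of 0.11 (SE 0.07, adjusted p = 0.326), and the summed counts had -0.20 (adjusted p = 0.121). SNHG4 shares 626 exon bases with MATR3, a nuclear matrix protein, and with it and SIL1 the sum had -0.28 (adjusted p = 0.147). SNHG10 with GLRX5 had -0.08 (adjusted p = 0.451). The falls of SNHG3, SNHG4 and SNHG10 thus passed the test in their own rows and not in the summed rows, in which the partners had most of the counts.

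Other partners moved with a member or against it. SNHG12 overlaps TRNAU1AP, a selenocysteine tRNA factor, by 8 exon bases; TRNAU1AP was lower itself (-0.50, SE 0.10, adjusted p = 0.00996), and the sum had -0.83 (adjusted p = 0.00625). OIP5-AS1 overlaps NUSAP1, a spindle protein that was lower (-0.39, SE 0.08, adjusted p = 0.013). OIP5-AS1 also shares 513 exon bases with AC087721.2, at 37.2 ± 21.5 CPM in shNTC and 69.1 ± 7.0 CPM in shEHD1. AC087721.2 had a change of 0.90 (SE 0.48, adjusted p = 0.273), not past the test. The sum over all rows that overlap OIP5-AS1 had -0.23 (adjusted p = 0.0344). Whether reads were assigned differently between these rows was not tested. The sum for SNHG7 with DIPK1B had -0.44 (adjusted p = 0.00709). SLC3A2, an amino acid transporter subunit, starts 51 bases from SNHG1 on the other strand and was also lower (-0.47, SE 0.10, adjusted p = 0.0167). PRSS12, which overlaps SNHG8 by 2487 exon bases, was higher (0.77, SE 0.22, adjusted p = 0.0451), and so was MCMDC2, which overlaps SNHG6 by 1488 (0.93, SE 0.22, adjusted p = 0.023). Each of these 5 calls was lost with at least 1 library left out: TRNAU1AP and SLC3A2 without the first shEHD1 library, NUSAP1 and SLC3A2 without the third, and PRSS12 and MCMDC2 without each shEHD1 library, besides the second shNTC library for PRSS12 and the first for MCMDC2. With these rows summed, SNHG8 had 0.08 (adjusted p = 0.487), not past the test.

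Genes that work with these RNAs were counted in the same fit, from lists chosen with earlier results of these data known. Of 20 factors of snoRNA particles and their assembly, 2 were lower (10%, background 8.75%) and 1 higher (5%, background 8.59%), shares near the background. NOP56, a core protein of C/D particles and itself a snoRNA host, had -0.53 (SE 0.10, adjusted p = 0.00986), NHP2, a core H/ACA protein, -0.25 (adjusted p = 0.0483) and PHAX, an export adaptor, 0.22 (adjusted p = 0.0481). The call of NOP56 held with any one library left out, whereas NHP2 did not pass when any one of the 6 was left out, and PHAX did not pass with DESeq2's size factors or without any of the libraries other than the third shNTC library. Of 16 factors of nonsense-mediated decay and the exon junction, 2 were lower (12.5%, background 8.75%) and 0 higher (3 higher at an unadjusted p under 0.05, edgeR, and 1 higher with DESeq2). One of the lower ones was RBM8A, a core protein of the exon junction complex, at -0.47 (SE 0.09, adjusted p = 0.012). None of the 16 was lower without the first or without the third shEHD1 library (edgeR), where all genes had 4.39% and 4.15% lower. Ribosomal protein genes, the textbook TOP class, had 0 of 85 lower and 0 of 85 higher (edgeR; 3 lower and 1 higher at an unadjusted p under 0.05), with a median of -0.07. DESeq2 called 2 of them lower and 1 higher.

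Other snoRNA hosts and other long non-coding RNAs were counted in the same way, against the same background of 8.75% lower and 8.59% higher. Of 238 protein-coding hosts 26 were lower (10.9%) and 20 higher (8.40%), with a median of -0.03, and the 3 smallest adjusted p-values were those of NUCKS1 (-1.01), AP1G1 (-0.81) and RC3H2 (-0.55), which all passed with any one library left out. The counts fell to 12 lower and 6 higher without the first shEHD1 library and to 11 and 9 without the third. In those fits all genes had 4.39% and 4.15% lower. The counts for protein-coding hosts ran from 11 to 29 lower and 6 to 26 higher over the 6 left-out libraries. Of 23 non-coding hosts outside the SNHG series 2 were lower (8.70%), a share near the background, and 1 was higher (4.35%). The lower ones were C19orf48 (-0.60) and TMEM161B-AS1 (-0.45), and the higher one was LINC00888 (1.03). TMEM161B-AS1 passed with a library left out only where that was the third shNTC library. Of 2115 other long non-coding RNA genes with enough counts, 98 were lower (4.63%) and 41 higher (1.94%), with a median of -0.10. With 1 library left out these ran from 31 (without the third shEHD1 library) to 106 lower and from 10 to 55 higher. The difference between the members and these lists was not tested.

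The lists of proteins from the nuclear bodies that MALAT1 and NEAT1 occupy are read against the same background of 8.75% lower. Of 21 paraspeckle proteins 5 were lower (23.8%) and 0 higher (0 also at an unadjusted p under 0.05, edgeR), among them RBM3 at -0.40 (SE 0.06, adjusted p = 0.00295), PSPC1 at -0.41 (SE 0.07, adjusted p = 0.00724) and CPSF6 at -0.40 (SE 0.08, adjusted p = 0.0124). The count was 2 without the first or without the third shEHD1 library and 3 without the first or without the second shNTC library, with RBM3 and PSPC1 passing in each. Of all genes, 4.39% were lower without the first shEHD1 library and 4.15% without the third. The shares of all genes were 5.37% and 6.40% without the first and the second shNTC library. Of 15 nuclear speckle proteins 8 were lower (53.3%) and 1 higher, with the splicing factors SRSF6 at -0.62 (adjusted p = 0.0042), SRSF7 at -0.45 (adjusted p = 0.00443) and SRSF3 at -0.38 (adjusted p = 0.0181). Without the first or without the third shEHD1 library 2 were lower, SRSF6 and SRSF7, and 5 without the first shNTC library, and the 1 higher call was lost without any one library other than the third shNTC library. Among 9 known protein partners of these RNAs, SUZ12, a Polycomb subunit, was lower at -0.66 (adjusted p = 0.00454), IGF2BP3 lower at -0.30 (adjusted p = 0.0204), PUM2, a Pumilio protein, lower at -0.22 (adjusted p = 0.0498), and IGF2BP2 higher at 0.29 (adjusted p = 0.0365). Of these 4 calls SUZ12 alone held with any one library left out. Mitochondrial rows had 23 of 37 lower, led by MT-ATP8 (-0.97), MT-CO2 (-0.84) and MT-ND4L (-0.80), and 0 higher (0 also at an unadjusted p under 0.05, edgeR).

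**Figure D5:**
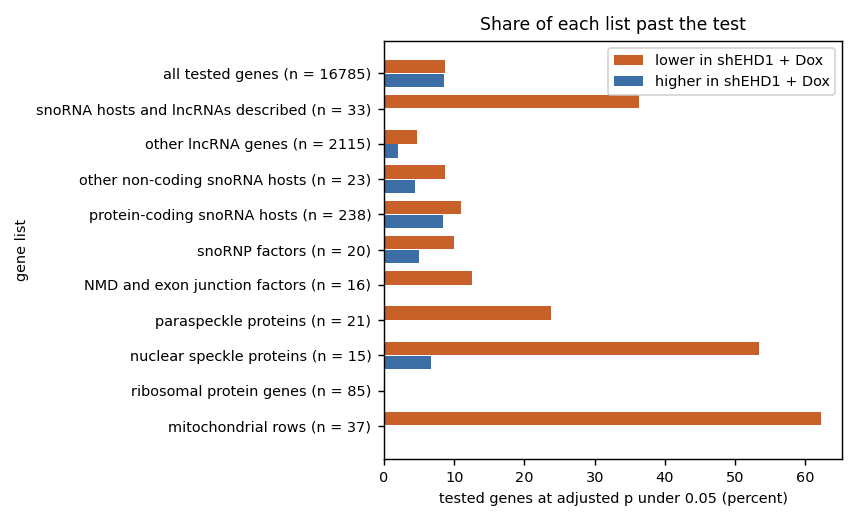
Percent of tested genes in each list at an adjusted p under 0.05 in shEHD1 + Dox against shNTC + Dox, lower in orange and higher in blue. The described genes had 36.4% lower and none higher, all genes 8.75% and 8.59%, and the ribosomal protein genes none either way (edgeR; DESeq2 called 2 of the latter lower and 1 higher).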

How the data were processed

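RNA-seq of 6 TC71 libraries, 3 shNTC and 3 shEHD1, all with Dox, was grouped by the sample labels. The authors deposited whole-number counts per gene, not normalized. The study's methods name hisat2, Ensembl annotation and Stringtie 2.1.1 on hg38, whereas the submitters' processing notes list STAR 2.7.3a and DESeq2. How counts were made from the quantification is not given in the sources used here. Libraries were made with the TruSeq RNA kit (version 2), which does not keep strand. Libraries without Dox were not analysed here.

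Counts were scaled by TMM and tested with edgeR 4.0.16 (R 4.3.3; glmQLFit, robust, and glmQLFTest, group only) on 16785 genes, those with 10 or more counts in 3 or more libraries, and p-values were adjusted by Benjamini-Hochberg over all of them. SE was the log2 fold change over the square root of F. The code was tested on simulated data. A call needed an adjusted p under 0.05, and a 2-fold call, as in the study, a fold of 2 as well. Two-sided exact permutation tests were run on single genes. Positions and exons were from GENCODE 44 (60357 of 60676 identifiers matched), and snoRNA positions, promoters and starts from RefSeq (GRCh38.p14). Alternatives were DESeq2's size factors, no filter, 10 counts in every library, the DESeq2 1.42.0 test, a block for replicate number, leaving out each library, counts summed with overlapping rows, the longest transcript as length and, added after seeing the data, no mitochondrial rows.

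The genes and lists were chosen with earlier results of these data known. Values were given for the 11 genes set by name, SNHG genes past the test or averaging at least 20 CPM, EHD1, up to 3 genes with the smallest adjusted p per list, and overlapping or divergent rows (start within 1000 bases) past the test, except that 1 gene is not reported here. PUM2, RCC1, MATR3, SIL1, GLRX5, DIPK1B, AC087721.2, SNHG9, SNHG25 and the other remaining members were named after their values were seen. Intervals of 0 counts (3 counts) cover counting error only.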

Additional observations from a re-analysis of the deposited data

How the results depend on the processing

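SNHG4, SNHG1, SNHG3, SNHG7, DANCR and TUG1 passed in all 11 settings with another normalization, filter, tool, block or library left out. No member was called higher in any of them. Counts summed over overlapping rows were a further setting, outside those 11. In it SNHG4 (adjusted p = 0.147, edgeR), SNHG3 (0.121) and SNHG10 (0.451) did not pass. The lower count was 12 with DESeq2's size factors, 11 with no filter, 12 with 10 counts in every library and 14 with DESeq2. Of all genes, 1483 of 16785, 1194 of 31000, 1579 of 14792 and 1859 of 15473 were lower in those settings. The lower count of the members ranged from 6 to 12 with 1 library left out. It was 7 without the first shEHD1 library, 7 without the second and 6 without the third, where all genes had 4.39%, 6.62% and 4.15% lower. SNHG12, SNHG17 and SNHG15 lost the call without each shEHD1 library, SNHG19 without the second or the third, OIP5-AS1 without the first or second shNTC or without the first or the third shEHD1 library, and SNHG10 without any one of the 6 and with no filter. The count past 2-fold was 0 without the third shNTC library and without each shEHD1 library (range 0 to 1). The median of -0.34 moved to -0.24 without the second shEHD1 library (range -0.36 to -0.24).

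Labels give both groups the numbers 1 to 3. Deviations of same-numbered libraries correlated at 0.07, -0.06 and -0.04 over genes, so the numbers were not taken to pair them. With the replicate number as a block, 9 members and 892 genes were lower, beside 12 and 1469 without it; SNHG19 (adjusted p = 0.052), SNHG15 (0.051) and SNHG10 (0.071) no longer passed. The block also moved the lower counts of the lists to 5 nuclear speckle, 3 paraspeckle, 1 snoRNA-particle, 1 decay, 16 protein-coding host and 42 other lncRNA genes, and the higher ones to 0, 0, 0, 0, 10 and 13. SNORA71B passed with other size factors or no filter, and not with the block, DESeq2 or 10 counts in every library. No filter lowered the protein-coding hosts to 16.

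Members near 0 changed sign with 1 library left out, over ranges of -0.26 to 0.026 for EPB41L4A-AS1, -0.23 to 0.047 for SNHG16, -0.13 to 0.031 for SNHG29, -0.092 to 0.043 for ZFAS1, -0.078 to 0.020 for SNHG8, -0.058 to 0.061 for SNHG32 and -0.063 to 0.065 for SNHG5. They were above 0 without the third shNTC library (EPB41L4A-AS1, SNHG16, SNHG8, SNHG32, SNHG5) or without the second shEHD1 library (SNHG29, ZFAS1, SNHG8, SNHG32, SNHG5). With no filter SNHG32 was at 0.0092 and SNHG5 at 0.0098, and with overlapping rows summed SNHG8 was at 0.082. None of these values passed the test. The cause of these differences was not tested.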
